A study of Mus musculus with 28 samples.

Results

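Antioxidant enzymes dispose of the superoxide and peroxides that mitochondria and the phagocyte oxidase release. Here they are 10 genes, taken by their symbols from the 48587 genes of the count table of sorted hippocampal microglia, and all 10 were in the table. They are the superoxide dismutases Sod1 and Sod2, catalase (Cat), the glutathione peroxidases Gpx1 and Gpx4, the peroxiredoxins Prdx1 and Prdx5, thioredoxin (Txn1), heme oxygenase 1 (Hmox1) and the quinone reductase Nqo1. The genes were picked by name and not by a value measured here, although earlier results of these data were known when they were picked.

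The 28 libraries each held RNA of FACS-isolated CD11b+CD45low microglia, with T, B, Ly6C+ and Ly6G+ cells gated out, from the hippocampus of 1 male mouse on a C57BL/6J background at 16 weeks of age. Heterozygous 5xFAD mice carry human APP and PS1 with familial Alzheimer mutations under the neuron-specific Thy-1 promoter, so that microglia meet amyloid without being driven to express it, and WT mice were their littermates. Specific pathogen-free (SPF) mice were 5 WT and 3 5xFAD, germ-free (GF) mice were 4 WT and 5 5xFAD, and mice given vancomycin, cefoxitin, gentamicin and metronidazole in the drinking water for 8 weeks (ABX) were 5 WT and 6 5xFAD. GF mice were bred in Bern and all others in Freiburg, so that GF effects and those of the facility cannot be told apart. Mice are named by genotype, housing and number. FAD_GF_201 is 5xFAD by its title and genotype but its description says WT. It was kept with the 5xFAD mice.

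Library totals ran from 14441610 to 29977395 reads, and 9 of the 10 genes had more than 10 reads in every library. The microglia markers P2ry12, at 4457 to 11931 CPM (reads relative to the library total, scaled by TMM), and Tmem119, at 3033 to 5844 CPM, were high in all libraries. Both were lower in 5xFAD than in WT mice without overlap in SPF and GF housing, as was P2ry12 in ABX housing. In GF mice the sums of 6 astrocyte markers (225 to 292 CPM in WT, 169 to 202 in 5xFAD) and 6 endothelial markers (28.2 to 35.1 CPM in WT, 10.1 to 23.1 in 5xFAD) did not overlap either. Slc1a3 and Pecam1 made up most of these sums, Gja1 was at 0 in 20 libraries and Cldn5 in 25. The astrocyte markers Gfap and Aldoc went the other way at low levels, without overlap. Gfap had 0 to 1.02 CPM in GF WT and 1.23 to 5.67 in GF 5xFAD mice, and Aldoc 0 to 0.515 and 0.986 to 3.27. The sum of 4 monocyte markers was higher in 5xFAD mice without overlap in SPF (15.4 to 39.7 against 5.95 to 8.19 CPM) and ABX housing (14.3 to 52.6 against 2.00 to 8.63 CPM). Its members differed, and only Ccr2 was higher without overlap in both housings. Chil3 had 6.18 to 30.3 CPM in SPF 5xFAD mice but was at 0 in 5 of the 6 ABX 5xFAD mice. Plac8 overlapped in both housings, and Ly6c2 was at 0 in 24 libraries. The part of these markers in the results below was not tested. Neutrophil markers (7 genes, led by Ngp, S100a8 and S100a9) summed to 60.7 to 269 CPM in the 3 SPF 5xFAD libraries and to 141 CPM in FAD_ABX_1151, and to at most 0.784 CPM in the other 24, while their member Retnlg was at 0 in 27 of 28 libraries. These 4 libraries share a style of numbering in their descriptions, all SPF and ABX WT libraries share another, and all GF libraries and the other 5 of ABX 5xFAD share the third. GF 5xFAD against GF WT and ABX against SPF in WT mice are the only comparisons below within 1 style, and no source says that a style was a batch.

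Superoxide dismutases turn superoxide into hydrogen peroxide, SOD1 in the cytosol and SOD2 in the mitochondrial matrix. Catalase, glutathione peroxidases and peroxiredoxins then reduce the peroxide, the latter families at the expense of glutathione and of thioredoxin. GPX4 stands apart in that it reduces lipid peroxides in membranes. Heme oxygenase 1 opens heme to biliverdin, carbon monoxide and iron, and NQO1 reduces quinones. Many of these genes are known targets of NRF2, a factor that binds the antioxidant response element, and microglia draw on them when they take up debris.

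The core of that element, TGACNNNGC, was searched on both strands in the 250 bases before each gene's start in RefSeq sequences of GRCm38.p6. Of the 10 genes, 9 had a sequence, Hmox1 being without one, and 2 of these 9 held the core, Sod1 and Prdx1, against 10.2% of 32841 promoters. The stretches before the first base of Prdx1, Txn1 and Sod1 in either annotation are printed 5′ to 3′ because Prdx1 and Txn1 changed most often below and Sod1 held the core and passed no test. Capitals mark the core, which reads on the reverse strand in both genes and lies 133 bases before the RefSeq start in Prdx1 and 56 in Sod1. Both of these printed stretches end short of the RefSeq start.
Prdx1 chr4:116685349-116685543 plus strand: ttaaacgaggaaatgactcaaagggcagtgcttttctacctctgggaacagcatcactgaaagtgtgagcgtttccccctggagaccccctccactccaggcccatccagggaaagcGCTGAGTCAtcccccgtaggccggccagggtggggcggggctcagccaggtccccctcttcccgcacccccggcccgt
Txn1 chr4:57956412-57956661 minus strand: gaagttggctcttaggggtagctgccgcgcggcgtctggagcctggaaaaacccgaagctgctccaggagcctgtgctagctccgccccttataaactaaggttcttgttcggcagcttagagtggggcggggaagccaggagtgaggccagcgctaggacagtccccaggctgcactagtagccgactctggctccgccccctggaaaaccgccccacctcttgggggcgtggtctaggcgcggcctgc
Sod1 chr16:90220512-90220741 plus strand: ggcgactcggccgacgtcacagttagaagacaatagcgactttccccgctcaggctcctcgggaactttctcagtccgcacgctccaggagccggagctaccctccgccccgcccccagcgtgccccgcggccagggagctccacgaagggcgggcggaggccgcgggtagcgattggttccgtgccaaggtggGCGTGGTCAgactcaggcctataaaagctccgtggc
The Txn1 stretch held no such letters. A match is a description of the letters, not of binding.

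Per kilobase of exon, Gpx1 stood highest of the 10 genes with 226 ± 61.0 CPM per kb (mean ± SD over the 28 mice). Cat had 44.0 ± 4.91 CPM per kb, Prdx5 43.1 ± 8.45, Prdx1 42.4 ± 13.1 and Txn1 38.8 ± 11.3, 4 genes whose ranges over mice overlapped. Sod1 followed with 26.2 ± 4.83 CPM per kb, Hmox1 with 18.5 ± 5.29, Gpx4 with 15.2 ± 3.64 and Sod2 with 7.60 ± 1.35. Gpx1, the abundant cytosolic peroxidase, was thus the leading message of the set in these cells in every group, with up to 12213 reads in a library. Nqo1 (chr8:107388225-107403206) was near the limit of detection. It had 0 reads in 21 of 28 libraries, where a count of 0 allows up to 0.115 to 0.198 CPM by library depth, and 53 reads in all the others, 23 of them in FAD_ABX_1455 (0.949 CPM) and 15 in FAD_GF_185 (0.661 CPM). It failed the low-count filter and entered no test, so the tests below cover 9 genes.

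**Figure D1:**
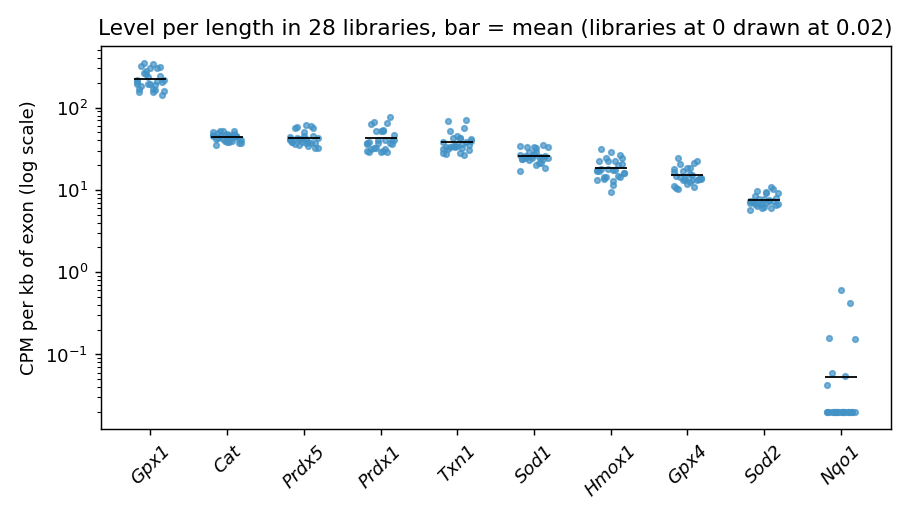
Level of each gene in CPM per kb of exon (log axis), 1 point per mouse over 28 libraries with a bar at the mean. Gpx1 lies above the other genes and Nqo1, at 0 in 21 libraries (drawn at 0.02), far below them.

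Across the 6 groups, the mean level of GF 5xFAD mice was the highest for each of the 9 genes. The share of all genes with their highest mean in that group was not counted, so this is no result about the set. The highest group mean exceeded the lowest 2.03-fold for Prdx1, 1.89-fold for Gpx1, 1.87-fold for Txn1, 1.67-fold for Gpx4 and 1.605-fold for Hmox1. The spans were narrower for Prdx5 (1.501-fold), Sod2 (1.42-fold), Sod1 and Cat (each 1.27-fold). The lowest group was a WT group for Sod1, Sod2, Gpx4, Prdx1, Txn1 and Hmox1 and SPF 5xFAD for Cat, Gpx1 and Prdx5. Changes were tested with edgeR's quasi-likelihood test on all 28 mice, with p-values adjusted after Benjamini and Hochberg over 15298 genes and a threshold of 0.05. All fold changes below are on the log2 scale and of levels within 1 gene.

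**Figure D2:**
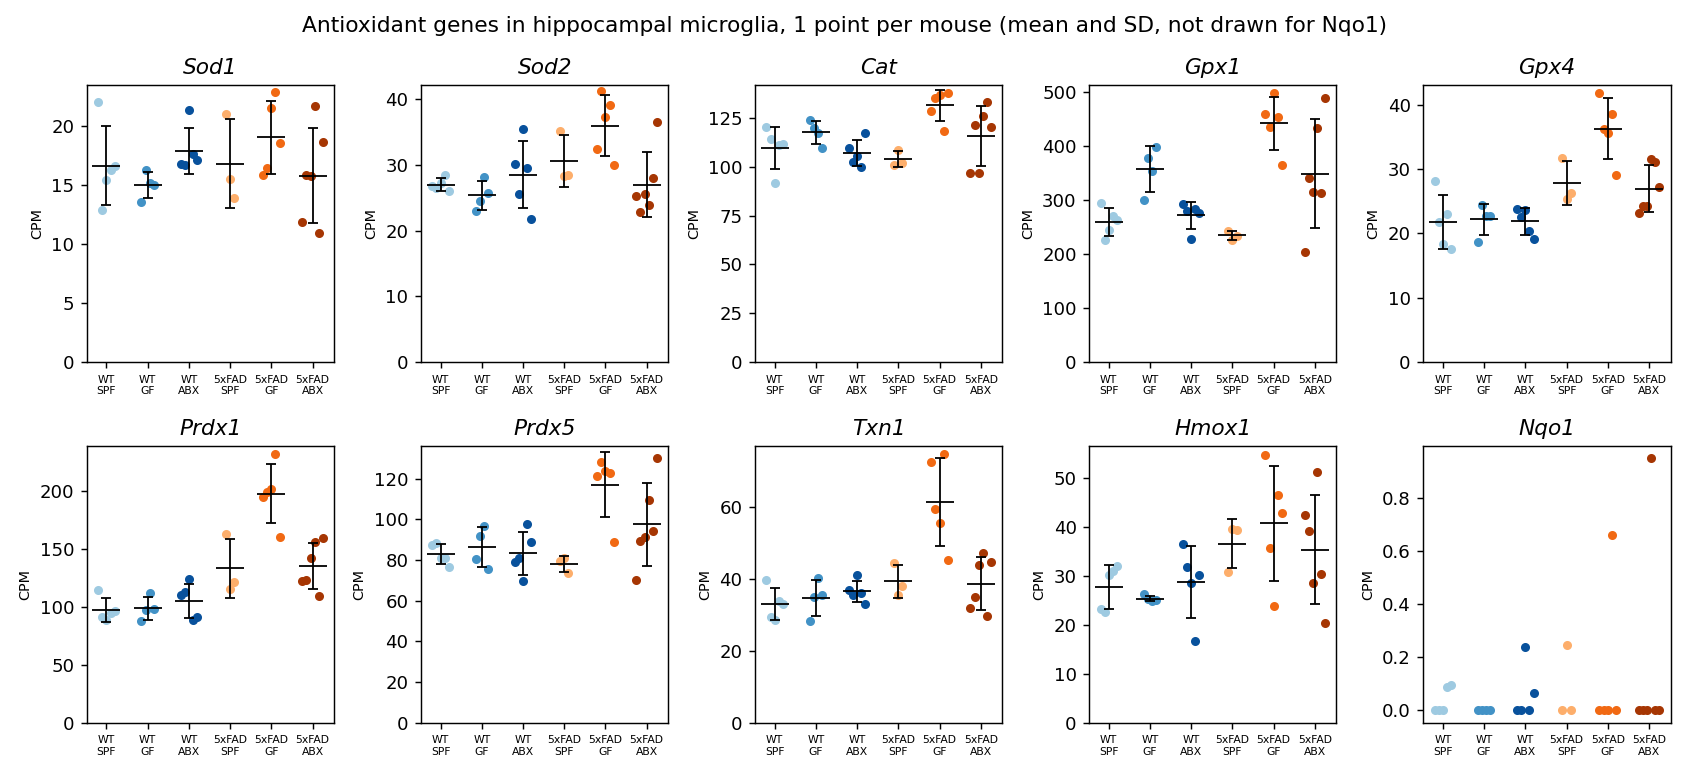
CPM of each gene by genotype and housing, 1 point per mouse, with the mean and SD (no bars for Nqo1). The GF 5xFAD mice carry the highest mean in each of the 9 tested genes, most clearly in Prdx1 and Txn1. The share of all genes with their highest mean there was not counted.

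Whether microglia of 5xFAD mice express more of these enzymes than those of WT mice was asked within each housing. In SPF mice, 0 of the 9 genes passed the test, where 4.57% of all genes did. In GF mice, 6 passed, all higher in 5xFAD, where 15.6% of all genes passed and 9.43% were higher. In ABX mice, 1 passed and was higher, where 14.4% of all genes passed and 9.45% were higher. The 9 genes had a median change of 0.18 under SPF, 0.51 under GF and 0.23 under ABX conditions, beside -0.027, -0.025 and -0.013 for all genes. Averaged over the housings, 4 of 9 passed, all higher (Prdx1, Gpx4, Txn1 and Hmox1), where 25.1% of all genes passed and 14.3% were higher.

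Prdx1 (chr4:116685544-116700822 in GRCm38, as are all positions here), a cytosolic peroxiredoxin that reduces hydrogen peroxide and is recycled by thioredoxin, changed most. From lowest to highest its levels were 87.5, 97.2, 98.5 and 112 CPM in the 4 GF WT mice and 160.2, 195, 199.6, 202 and 232 CPM in the 5 GF 5xFAD mice. Every GF 5xFAD mouse lay above every GF WT mouse, and the means were 98.8 ± 10.0 CPM (SD, n = 4) and 198 ± 25.6 CPM (SD, n = 5), 2.00-fold apart (log2 fold change 1.00 ± 0.13 (SE), adjusted p = 1.54e-06). In SPF mice the levels were 89.1, 91.2, 94.6, 96.5 and 115 CPM in WT and 115, 122 and 163 CPM in 5xFAD. The groups did not overlap, by a narrow margin that WT_SPF_912 set, and the difference did not pass (log2 fold change 0.45 ± 0.14 (SE), adjusted p = 0.0527). It passed under 7 of 10 other settings, among them DESeq2 and limma's voomWithQualityWeights. In ABX mice the levels were 88.9, 91.5, 109.9, 113 and 124 CPM in WT, and 109.7 at the lowest, 132 at the median and 159 at the highest CPM in the 6 5xFAD mice. The groups overlapped, but the difference passed (log2 fold change 0.36 ± 0.12 (SE), adjusted p = 0.0331), and it was lost when 1 of 5 mice was left out (WT_ABX_923, WT_ABX_932, FAD_ABX_1453, FAD_ABX_1455 or FAD_ABX_1482, adjusted p up to 0.0933). It passed under 7 of 10 other settings, and not with library size alone, in the fit of only the groups compared or with 26 mice (adjusted p up to 0.0965).

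Txn1 (chr4:57943373-57956411), the small protein that returns electrons to peroxiredoxins, followed Prdx1 in GF mice. Its levels were 28.2, 34.8, 35.6 and 40.1 CPM in GF WT and 45.1, 55.5, 59.4, 72.5 and 74.7 CPM in GF 5xFAD mice. The groups did not overlap, and the means of 34.7 ± 4.90 CPM (SD, n = 4) and 61.4 ± 12.3 CPM (SD, n = 5) differed 1.77-fold (log2 fold change 0.82 ± 0.15 (SE), adjusted p = 0.000258). In SPF mice the levels were 28.6, 29.5, 33.1, 33.7 and 39.8 CPM in WT and 35.4, 38.0 and 44.5 CPM in 5xFAD, overlapping and without a call (log2 fold change 0.25 ± 0.16 (SE), adjusted p = 0.569). In ABX mice they were 33.0, 35.6, 36.1, 36.9 and 41.0 CPM in WT, and 29.5 at the lowest, 39.4 at the median and 47.2 at the highest CPM in 5xFAD. The ABX 5xFAD mice spread to both sides of the WT mice (log2 fold change 0.084 ± 0.14 (SE), adjusted p = 0.75, with a 95% interval of -0.20 to 0.37).

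Prdx5 (chr19:6906697-6910106), a peroxiredoxin of mitochondria, peroxisomes and cytosol, rose less. It had 75.6, 80.5, 91.7 and 96.8 CPM in GF WT and 88.7, 121, 123, 124 and 128 CPM in GF 5xFAD mice (log2 fold change 0.44 ± 0.13 (SE), adjusted p = 0.0211). The low 5xFAD mouse, FAD_GF_201, lay within the WT range and the other 4 above it. In SPF mice the change was -0.089 (adjusted p = 0.9) and in ABX mice 0.23 (adjusted p = 0.219). Prdx5 shares 409 exon bases with Trmt112 on the other strand, which had 2850 reads against its 52265, and the library kit does not mark strand.

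Of the glutathione peroxidases, Gpx4 rose in GF 5xFAD mice and Gpx1 did not pass. Gpx4 (chr10:80047166-80056439) had 18.7, 22.7, 22.7 and 24.5 CPM in GF WT and 29.1, 35.6, 36.2, 38.6 and 41.8 CPM in GF 5xFAD mice, with no overlap (1.64-fold, log2 fold change 0.71 ± 0.14 (SE), adjusted p = 0.000626). In SPF mice it had 17.5, 18.3, 21.8, 23.0 and 28.2 CPM in WT and 25.3, 26.3 and 31.7 CPM in 5xFAD, where only WT_SPF_912 reached into the 5xFAD range (log2 fold change 0.35 ± 0.15 (SE), adjusted p = 0.258). In ABX mice the change was 0.30 (adjusted p = 0.118), and averaged over the housings it was 0.46 (adjusted p = 8.27e-05). Gpx4 has a pseudogene, Gpx4-ps2, whose transcript matches it at 99.7% over 733 bases, so that reads of the pair could have been shared or dropped in counting.

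Gpx1 (chr9:108338903-108340343) had 301, 354, 379 and 399 CPM in GF WT and 366, 436, 453, 461 and 499 CPM in GF 5xFAD mice, overlapping through FAD_GF_201 (log2 fold change 0.31 ± 0.15 (SE), adjusted p = 0.183). In SPF mice its levels were 226, 245, 263, 271 and 294 CPM in WT and 227, 234 and 243 CPM in 5xFAD, all within the WT range (log2 fold change -0.15 ± 0.16 (SE), adjusted p = 0.813). In ABX mice they were 227, 277, 280.1, 283 and 292 CPM in WT, and 205 at the lowest, 327 at the median and 490.1 at the highest CPM in 5xFAD. Of the ABX 5xFAD mice 5 lay above all WT mice and FAD_ABX_1151 below them all (log2 fold change 0.36 ± 0.14 (SE), adjusted p = 0.0747), and without FAD_ABX_1151 the change was 0.48 with adjusted p = 0.00324.

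Sod2 (chr17:13007839-13018119), the mitochondrial dismutase, had 23.0, 24.6, 25.7 and 28.2 CPM in GF WT and 30.0, 32.4, 37.3, 39.2 and 41.2 CPM in GF 5xFAD mice. The groups did not overlap (1.42-fold, log2 fold change 0.51 ± 0.14 (SE), adjusted p = 0.0125), and without WT_GF_199 the adjusted p was 0.0518. In SPF mice the change was 0.18 (adjusted p = 0.713) and in ABX mice -0.078 (adjusted p = 0.749). Sod1 and Cat passed in no housing. The cytosolic Sod1 (chr16:90220742-90226322) lay between 11.0 and 22.9 CPM over all mice, with changes of 0.015 under SPF, 0.35 under GF and -0.18 under ABX conditions (95% interval in GF -0.032 to 0.72). The peroxisomal Cat (chr2:103453849-103485160) lay between 91.7 and 138 CPM, with changes of -0.082, 0.16 and 0.11 (95% interval in GF -0.036 to 0.36).

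Hmox1 (chr8:75093621-75100589), which opens the heme ring, had 24.9, 24.99, 25.2 and 26.2 CPM in GF WT mice, the tightest group of the set, and 23.7, 35.6, 42.7, 46.5 and 54.6 CPM in GF 5xFAD mice. Of the latter 4 lay above all WT mice and FAD_GF_184 below them, and the difference passed (1.603-fold, log2 fold change 0.68 ± 0.23 (SE), adjusted p = 0.0394) but was lost without any 1 of 8 mice, the 4 GF WT mice among them. Changes in SPF (0.40, adjusted p = 0.524) and ABX mice (0.30, adjusted p = 0.363) did not pass, and the average over the housings did (0.46, adjusted p = 0.00859). Hmox1 is also known as a gene of tissue macrophages. Markers of border-associated macrophages (7 genes, among them Mrc1, Cd163 and Lyve1) summed to 3.38 to 7.71 CPM in SPF WT, 10.5 to 43.1 in GF WT, 3.57 to 5.83 in ABX WT, 16.5 to 29.0 in SPF 5xFAD, 10.8 to 84.9 in GF 5xFAD and 33.3 to 259 CPM in ABX 5xFAD mice. Mrc1 was above 0 in every library and Lyve1 at 0 in 13. Their part in the Hmox1 result was not tested, and in bulk RNA more cells of a type cannot be told apart from more RNA per cell.

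**Figure D3:**
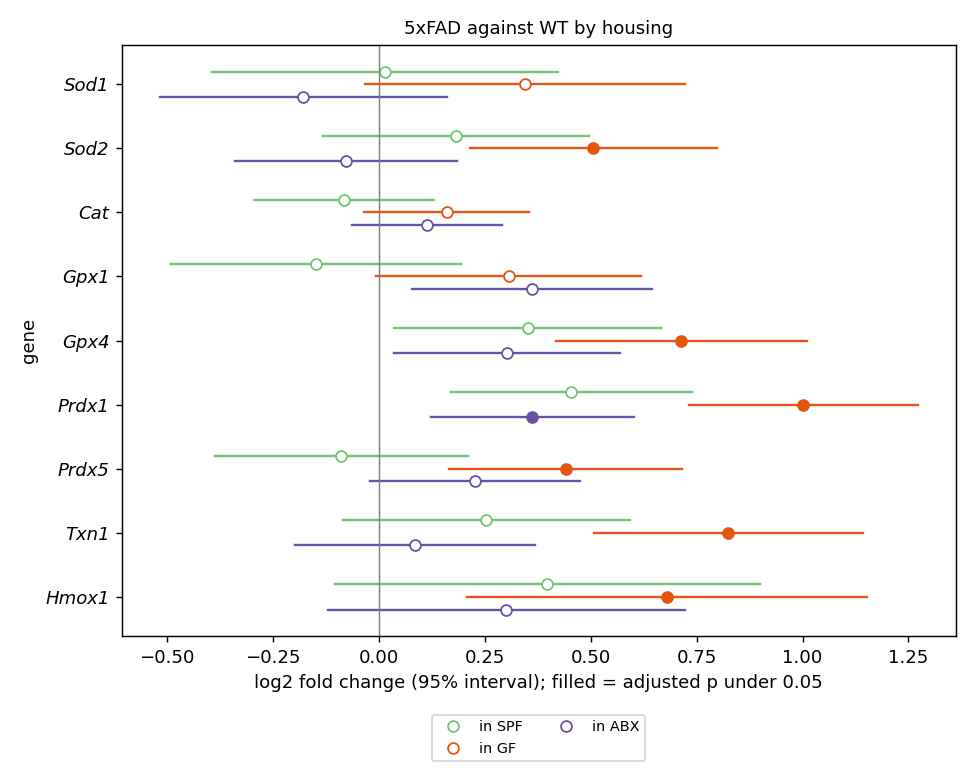
Log2 fold change of 5xFAD against WT microglia for the 9 tested genes in SPF, GF and ABX mice, with 95% intervals and filled points where the adjusted p is under 0.05. In GF mice 6 genes are filled, in ABX mice Prdx1 alone and in SPF mice none of the 9.

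A few mice set the reach of the GF result. FAD_GF_201 was the lowest GF 5xFAD mouse for 6 of the 9 genes, and WT_GF_199 was the lowest GF WT mouse for 6. Without FAD_GF_201, 5 of the 9 genes passed and Hmox1 did not, while 18.1% of all genes passed. Without WT_GF_199, 3 passed (Prdx1, Txn1 and Gpx4) and 11.7% of all genes, and without WT_GF_231, 4 and 12.4%. Scaling by library size alone also left these 3 genes, with a median change of all genes of -0.15, and there 19.8% of all genes passed, 1107 higher and 1919 lower in place of 1442 and 949, with Prdx1 at 0.87 (adjusted p = 1.53e-05). Shorter genes were more often higher in GF 5xFAD than in GF WT mice, 13.3% of the genes of up to 2053 bases against 6.30% of those of 5729 bases or more, and 5 of the 9 genes have up to 2053 bases. With a gene length offset, 5 of 9 and 14.8% of all genes passed, Txn1 with a change of 0.65 (adjusted p = 0.000204) and Prdx1 with 1.00 (adjusted p = 1.13e-06).

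Whether the lack of microbes altered the enzymes was asked within each genotype. Among WT mice, GF against SPF gave 0 of 9 genes (1.62% of all genes passed), ABX against SPF 0 of 9 (0% of all genes) and ABX against GF 0 of 9 (6.88%). Among 5xFAD mice, GF against SPF gave 5 of 9, all higher in GF, where 12.8% of all genes passed and 6.97% were higher. ABX against GF gave 4 of 9, all lower in ABX, where 10.6% of all genes passed and 6.07% were lower. ABX against SPF gave 0 of 9 (0% of all genes). Median changes of the 9 genes in 5xFAD mice were 0.39 for GF against SPF, -0.34 for ABX against GF and -0.021 for ABX against SPF, beside 0.018, 0.0053 and 0.012 for all genes. These comparisons share groups, so GF 5xFAD levels enter both sets of calls.

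Gpx1 differed most between GF and SPF 5xFAD mice. The lowest GF 5xFAD mouse (366 CPM) lay above the highest SPF 5xFAD mouse (243 CPM), a 1.89-fold difference of means (log2 fold change 0.92 ± 0.17 (SE), adjusted p = 0.00166). In WT mice all 4 GF levels, from 300.5 CPM, also lay above all 5 SPF levels, up to 294 CPM, yet the change did not pass (log2 fold change 0.46 ± 0.15 (SE), adjusted p = 0.104). It passed under 5 of 10 other settings, among them DESeq2 and a gene length offset. The mean of ABX 5xFAD mice lay between, at 349 ± 101 CPM, 0.58 from SPF (adjusted p = 0.536) and -0.34 from GF (adjusted p = 0.101). Single ABX 5xFAD mice ran from 205 CPM, below all SPF 5xFAD mice, to 490.1 CPM, within the GF 5xFAD range. Without FAD_ABX_1151 the ABX against SPF change was 0.68 with adjusted p = 0.0154.

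Prdx1, Txn1 and Prdx5 were also higher in GF than in SPF 5xFAD mice. Prdx1 had 160.2 to 232 CPM in GF and 115 to 163 in SPF 5xFAD mice, and only FAD_SPF_1144 reached the GF range (log2 fold change 0.57 ± 0.14 (SE), adjusted p = 0.00916). Txn1 had 45.1 to 74.7 CPM in GF and 35.4 to 44.5 in SPF 5xFAD mice, without overlap (log2 fold change 0.65 ± 0.17 (SE), adjusted p = 0.0118). Prdx5 had 88.7 to 128 CPM in GF and 73.5 to 80.9 in SPF 5xFAD mice, again without overlap (log2 fold change 0.59 ± 0.15 (SE), adjusted p = 0.00948). Cat, which passed for genotype in no housing, had 101, 102 and 108 CPM in SPF and 118, 129, 135, 137 and 138 CPM in GF 5xFAD mice, a small difference with no overlap (1.27-fold, log2 fold change 0.34 ± 0.10 (SE), adjusted p = 0.0285). The Cat call held under 6 of 10 other settings and was lost without any 1 of 5 mice, the 3 SPF 5xFAD mice, FAD_GF_182 or FAD_GF_184 (adjusted p up to 0.134). Gpx4 did not pass (0.39, adjusted p = 0.0997), nor did Sod1 (0.18), Sod2 (0.23) or Hmox1 (0.15).

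With 3 SPF 5xFAD mice, single mice weighed heavily. Without FAD_SPF_1148 only Gpx1 of the 9 genes passed between GF and SPF 5xFAD mice and 547 of all genes, without FAD_SPF_1146 it was 2 and 680, and without FAD_SPF_1144 it was 4 and 1562, against 5 and 1962 with all mice. All 3 SPF 5xFAD libraries carried the neutrophil markers and none of the GF 5xFAD libraries did (at most 0.0519 CPM). The astrocyte (169 to 202 CPM in GF, 222 to 238 in SPF) and endothelial sums (10.1 to 23.1, 24.1 to 29.8) did not overlap either. Nor did the sums of 6 B cell markers (721 to 872, 598 to 680), mostly Ighm, and of 6 T cell markers (0 to 0.182, 0.591 to 1.02). The part of all these markers in this comparison was not tested. Of the genes of up to 2053 bases 11.8% were higher in GF, and of those of 5729 bases or more 2.35%, and with a gene length offset 4 of the 9 genes and 9.42% of all genes passed, and Cat did not.

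Between ABX and GF 5xFAD mice, Txn1 and Prdx1 differed most. Txn1 had 29.5 at the lowest, 39.4 at the median and 47.2 at the highest CPM in the 6 ABX 5xFAD mice, and of these FAD_ABX_1455 alone exceeded the lowest GF 5xFAD mouse, FAD_GF_201 at 45.1 CPM (log2 fold change -0.67 ± 0.14 (SE), adjusted p = 0.00279). Prdx1 had 109.7 to 159 CPM in ABX and 160.2 to 232 in GF 5xFAD mice, without overlap (log2 fold change -0.55 ± 0.11 (SE), adjusted p = 0.00353). Gpx4 (log2 fold change -0.43 ± 0.13 (SE), adjusted p = 0.0273) and Sod2 (log2 fold change -0.42 ± 0.13 (SE), adjusted p = 0.0312) were lower as well, with overlap. Gpx4 passed under 4 and Sod2 under 7 of 10 other settings, and each was lost without any 1 of 7 mice (adjusted p up to 0.0867 and 0.0884). Of the genes of up to 2053 bases 10.5% were lower in ABX, and of those of 5729 bases or more 2.22%, and with a gene length offset 3 of the 9 genes and 9.06% of all genes passed, and Gpx4 did not. Without FAD_ABX_1151, the mouse of another numbering style, Txn1 and Prdx1 passed and Gpx4 and Sod2 did not, 2 of the 9 genes and 980 of all genes. The astrocyte sum, mostly Slc1a3, was 213 to 306 CPM in ABX and 169 to 202 in GF 5xFAD mice, without overlap. The part of these markers in this comparison was not tested. Against SPF 5xFAD mice, ABX 5xFAD mice differed by 0.023 in Prdx1 (95% interval -0.26 to 0.30) and by -0.021 in Txn1 (95% interval -0.35 to 0.31).

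**Figure D4:**
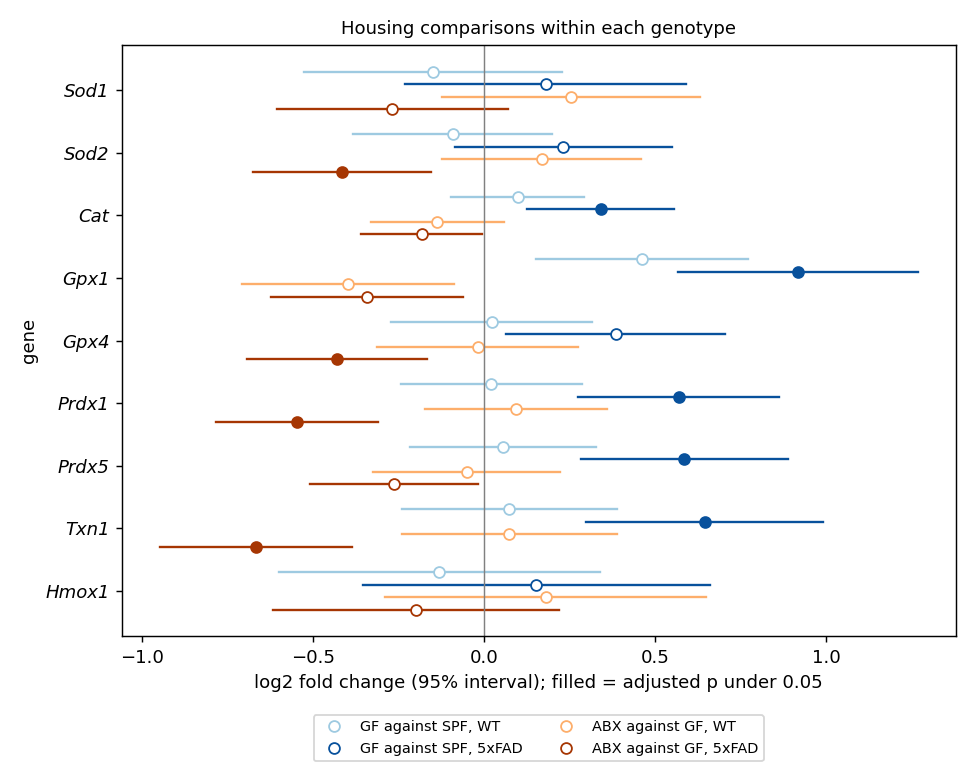
Log2 fold changes between housings for the 9 tested genes within WT and within 5xFAD mice, with 95% intervals and filled points where the adjusted p is under 0.05. All filled points belong to 5xFAD mice, 5 genes higher in GF than SPF and 4 lower in ABX than GF.

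Whether the 5xFAD change itself differed between housings was tested by interaction. Between GF and ABX mice, 1 of the 9 genes passed, where 1.76% of all genes did and 0.843% were lower. It was Prdx1, whose change was 1.00 in GF and 0.36 in ABX mice (difference -0.64 ± 0.17 (SE), adjusted p = 0.0499), just under the threshold. Txn1, with 0.82 in GF and 0.084 in ABX mice, lay just over it (difference -0.74 ± 0.20, adjusted p = 0.054). The Prdx1 call held under 4 of 10 other settings and in 8 of the 28 fits that left out 1 mouse. Between GF and SPF mice 0 of the 9 genes and 0% of all genes passed, with edgeR's quasi-likelihood test. At an unadjusted p under 0.05 there were 3 of the 9 (Prdx1, Prdx5 and Txn1) and 1304 of all genes, DESeq2 called 0 of the 9 and 25 of all genes, and voomWithQualityWeights 1 and 116. The changes were 0.55 in Prdx1 (95% interval 0.15 to 0.94), 0.57 in Txn1 and 0.53 in Prdx5. Between ABX and SPF mice 0 of 9 and 0% of all genes passed, with 1 of the 9 (Gpx1) and 1032 of all genes at an unadjusted p under 0.05. DESeq2 called 0 of the 9 and 1 of all genes there, and voomWithQualityWeights 0 and 14.

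Other counts of 0 were read in the same way. In SPF mice, 2 of the 9 genes (Prdx1 and Gpx4) had an unadjusted p under 0.05 for 5xFAD against WT, DESeq2 called 1 and voomWithQualityWeights 2, where the shares of all genes were 14.3%, 5.84% and 14.1%. For GF against SPF in WT mice these counts were 1 (Gpx1), 1 and 1, beside 16.6%, 4.62% and 10.7% of all genes. For ABX against GF in WT mice they were 1 (Gpx1), 0 and 1, beside 22.6%, 10.5% and 13.2%. With 9 genes, a count of 1 or 2 beside shares of this size is no result about the set. For ABX against SPF in 5xFAD mice the counts were 2 (Gpx1 and Prdx5), 0 and 1, with 1085, 8 and 134 of all genes. For ABX against SPF in WT mice all 3 were 0, with 687 of all genes at an unadjusted p under 0.05, 2 called by DESeq2 and 0 by voomWithQualityWeights. The widest of the 9 intervals there was that of Hmox1 (-0.39 to 0.49) and the narrowest that of Cat (-0.22 to 0.15).

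Within groups, mice with more Prdx1 also had more Txn1, with Pearson's r of 0.86 after subtraction of the group means over the 28 mice, the highest of the 36 pairs. Gpx1 and Prdx5 followed with 0.76 and Sod1 and Prdx1 with 0.73, while Cat and Hmox1 were near or below 0 with Prdx1 and Txn1. The lowest value was -0.48, for Sod2 and Hmox1. Among 9050 genes of at least 3 log2 CPM, those most like each gene by this measure were Uqcrh (0.92) and Ndufa4 (0.92) for Prdx1, Myeov2 (0.94) and Rplp1 (0.92) for Txn1, and Pigyl (0.93) and Edf1 (0.90) for Gpx1. They were Tmem261 (0.88) and Mrps14 (0.84) for Sod1, 2810428I15Rik (0.90) and Cyba (0.87) for Prdx5, and Manbal (0.80) and Cox7a2l (0.78) for Gpx4. For Sod2 they were Taf10 (0.78) and Tgif1 (0.70), for Cat Psmc1 (0.77) and Mtrr (0.76), and for Hmox1 Spcs3 (0.81) and Zfp568 (0.80). Values of 1 library share its depth and cell preparation, so these are descriptions with no test.

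**Figure D5:**
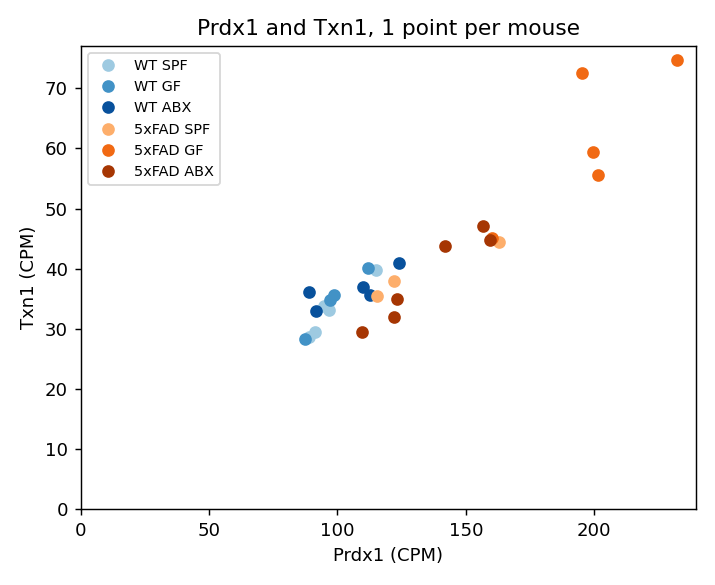
Txn1 against Prdx1 in CPM, 1 point per mouse, coloured by group. The 4 mice with both levels highest are GF 5xFAD mice, and FAD_GF_201 lies with the SPF and ABX 5xFAD mice.

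The rest of the pathway was followed in 55 further genes, of which 53 passed the low-count filter and Sod3 and Gpx8 did not. Comparing 5xFAD with WT, 4 were higher and 1 lower in SPF, 12 higher and 3 lower in GF, and 10 higher and 3 lower in ABX mice, where 4.57%, 15.6% and 14.4% of all genes passed. Their median changes were 0.077, 0.27 and 0.13, beside -0.027, -0.025 and -0.013 for all genes. Among 5xFAD mice 14 were higher and 1 lower in GF than in SPF, and 1 was higher and 13 lower in ABX than in GF, where 12.8% and 10.6% of all genes passed. Among WT mice 0 passed between GF and SPF (1.62% of all genes), and 1 was higher and 7 lower in ABX than in GF (6.88%).

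Of the other peroxidases and dismutases (7 tested), Prdx4, the peroxiredoxin of the endoplasmic reticulum, changed more with genotype than any of the 9 genes tested above. It had 45.1 ± 8.22 CPM in SPF WT, 110.2 ± 29.1 in SPF 5xFAD, 51.8 ± 2.22 in GF WT, 165 ± 30.2 in GF 5xFAD, 49.5 ± 3.00 in ABX WT and 99.7 ± 12.9 CPM in ABX 5xFAD mice. It rose in 5xFAD mice in all 3 housings, by 1.29 ± 0.15, adjusted p = 6.21e-07 in SPF, 1.67 ± 0.15, adjusted p = 1.42e-09 in GF and 1.01 ± 0.13, adjusted p = 1.96e-06 in ABX mice. Prdx6 (GF and ABX) and Prdx2 (GF) rose too. Gpx3, a secreted glutathione peroxidase named here after its values were seen, had the largest genotype change of these 7 genes, in ABX mice and at a low level. It had 0 to 11 reads (0 to 0.597 CPM) in the ABX WT mice and 25 to 271 reads (1.41 to 11.1 CPM) in the ABX 5xFAD mice, without overlap (log2 fold change 5.30 ± 0.81, adjusted p = 2.32e-05), and it did not pass in SPF (2.99 ± 0.90, adjusted p = 0.0508) or GF mice (1.94 ± 0.77, adjusted p = 0.0864). The summed macrophage markers given above were also higher in every ABX 5xFAD than in every ABX WT mouse, and their part in the Gpx3 result was not tested. In the thioredoxin system (12 tested), Txnip, which binds and holds thioredoxin, was lower in 5xFAD mice in all 3 housings, and Glrx5 was higher in GF than in SPF 5xFAD mice (0.90 ± 0.17, adjusted p = 0.0017).

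Of the glutathione genes (12 tested), Gsto1, an omega-class glutathione transferase, rose in 5xFAD mice by 0.86 ± 0.16, adjusted p = 0.000522 in SPF, 1.37 ± 0.15, adjusted p = 8.21e-08 in GF and 1.16 ± 0.14, adjusted p = 3.5e-07 in ABX mice. Its level was 83.7 ± 13.0 CPM in GF and 44.9 ± 9.19 CPM in SPF 5xFAD mice (0.90 ± 0.16, adjusted p = 0.00166). Of the heme and iron genes (7 tested), both ferritin chains rose, and these store the iron that heme oxygenase sets free. Fth1 rose by 0.89 ± 0.15, adjusted p = 0.00027 in SPF and 1.57 ± 0.15, adjusted p = 6.97e-09 in GF mice. Ftl1 rose by 0.55 ± 0.15, adjusted p = 0.0288 in SPF, 1.11 ± 0.14, adjusted p = 1.48e-06 in GF and 0.86 ± 0.13, adjusted p = 1.74e-05 in ABX mice. In ABX WT mice Fth1 was 1033 ± 41.1 CPM. Fth1 was 3255 ± 600.4 CPM in GF and 1838 ± 351 CPM in ABX 5xFAD mice (-0.82 ± 0.13, adjusted p = 0.000389), and it was the only one of the 53 genes past the threshold for the difference of the 5xFAD change between ABX and GF mice (-0.73 ± 0.19, adjusted p = 0.0485). Ferritin genes have many processed copies in the genome, and reads could have been split among them. Slc40a1, the iron exporter, was lower in 5xFAD mice in GF and ABX housing.

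Of the regulators of NRF2 (8 tested), 0 passed in SPF mice, 1 was higher in GF mice (Park7) and in ABX mice 1 was higher (Keap1) and 1 lower (Bach1), counts near the 15.6% and 14.4% of all genes that passed in GF and ABX mice. Bach1, a repressor of Hmox1 at antioxidant response elements, had 31.6 ± 5.79 CPM in ABX WT and 16.7 ± 5.15 CPM in ABX 5xFAD mice (-0.92 ± 0.18, adjusted p = 0.000474). It was higher in ABX than in GF WT mice (0.64 ± 0.20, adjusted p = 0.0462), where Keap1, which holds NRF2 for degradation, was lower (-0.54 ± 0.11, adjusted p = 0.0054). Of the genes that supply NADPH (7 tested), Tkt, the transketolase of the pentose phosphate pathway, was lower in ABX than in GF WT mice (-0.54 ± 0.11, adjusted p = 0.00563). It rose in 5xFAD mice in GF and ABX housing together with G6pdx. Nfe2l2, which encodes NRF2, passed in none of the 3 housings.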

How the data were processed

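Microglia of 28 mice in 6 groups were sequenced as single reads, from cDNA made with a kit that does not mark strand. By the study's methods, the authors aligned these by STAR to the GRCm38 genome and took gene counts from featureCounts on GENCODE M21. The submitters' processing notes give the versions STAR 2.7.2 and featureCounts 1.6.2, and list the human build GRCh38.p12. The deposited values are raw counts without normalization, beside summed exon lengths. How multi-mapping reads were counted is not given in the sources used here. Of the genes of the table that M21 names, 87.8% have the same start and end in both, and Sod1 and Sod2 do not, so the positions given are those of the table. The 92 spike-in entries were left out.

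Counts were tested in R 4.3.3 with edgeR 4.0.16: filterByExpr (minimum count 10, minimum total 15), TMM, 1 term per group (22 residual degrees of freedom), the quasi-likelihood test on 13 contrasts and Benjamini-Hochberg adjustment over 15298 genes at 0.05. Alternatives were RLE or library size scaling, no filter, 10 counts in every library, DESeq2 1.42.0, voomWithQualityWeights of limma 3.58.1 (the study's test), only the groups compared, gene length and GC offsets, 26 mice, and each mouse left out. The steps were tested on simulated data. Copies were sought with blastn at 94% identity over 200 bases. Correlations used log2 CPM with a prior count of 2.

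The 10 genes, the pathway lists and the marker lists were chosen with earlier results of these data known. Of the pathway lists, up to 4 genes past the threshold with the largest change and at least 3 log2 CPM were named in each comparison, and for each tested antioxidant gene the 2 genes of highest correlation. Further list genes named without values were chosen after their values were seen. Of the microglia marker list, P2ry12 and Tmem119 are given, and a gene of it and the sum over it are not reported here.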

Additional observations from a re-analysis of the deposited data

Results flagged for a closer look

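In 4 of 45 tests of a group of 4 to 10 mice for 1 library far from the others (Dixon's ratio, which chance passes in about 1 group in 20), a mouse stood apart. Sod1 was 21.3 CPM in WT_ABX_911 and at most 17.6 CPM in the other ABX WT mice. Gpx1 was 227 CPM in the same mouse and at least 277 CPM in the others. Prdx1 was 115 CPM in WT_SPF_912 and at most 96.5 CPM in the other SPF WT mice. Prdx5 was 88.7 CPM in FAD_GF_201 and at least 121 CPM in the other GF 5xFAD mice.

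The 5xFAD change of Prdx1 differed between ABX and GF mice by -0.64 on the log2 scale in edgeR's test of the interaction (adjusted p = 0.0499). Of the 28 mice, all 5 GF 5xFAD mice lay above all 4 GF WT mice, and in ABX housing the groups overlapped.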

How the results depend on the processing

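No paired analysis was possible because the animal numbers of the labels differ in every group. Under 10 alternatives and 28 fits that left out 1 mouse, no called change of a gene reversed direction. The count of the 9 genes called for 5xFAD against WT was 0 in SPF mice, 1 with RLE factors, with 10 counts in every library, with DESeq2, in the fit of only the groups compared, with a gene length offset and with 26 mice, and 2 with voomWithQualityWeights. In GF mice 6 fell to 3 with library size alone and to 5 with the length and GC offsets, and rose to 7 with 26 mice. The averaged comparison, 4 genes, gave 4 to 6. In ABX mice 1 became 0 with library size alone and in the fit of only the groups compared, and 2 with DESeq2 and with the length offset. GF against SPF in WT gave 1 in place of 0 with DESeq2, voomWithQualityWeights, only the groups compared, the length offset and 26 mice. GF against SPF in 5xFAD, 5 genes, gave 4 with library size alone, no filter, only the groups compared and the length offset, and 7 with voomWithQualityWeights. ABX against SPF in 5xFAD gave 1 with voomWithQualityWeights and with 26 mice. ABX against GF in WT gave 1 with voomWithQualityWeights, only the groups compared, the length offset and 26 mice. ABX against GF in 5xFAD fell from 4 to 3 with the length and GC offsets, to 2 with library size alone and with no filter and to 1 with only the groups compared, and rose to 5 with voomWithQualityWeights. The GF minus SPF interaction gave 1 with voomWithQualityWeights. The ABX minus GF interaction, 1 gene, gave 0 with RLE factors, library size alone, no filter, only the groups compared and the length and GC offsets, and 2 with 10 counts in every library, DESeq2, voomWithQualityWeights and 26 mice. The share of all genes called moved with the setting too, over the 10 alternatives from 2.21% to 14.1% in SPF, 7.13% to 21.3% in GF and 6.39% to 18.2% in ABX mice for genotype, 12% to 30.9% averaged, 0.816% to 10.7% for GF against SPF in WT and 5.19% to 25.3% in 5xFAD, 0% to 0.876% for ABX against SPF in 5xFAD, 1.71% to 13.2% for ABX against GF in WT and 1.89% to 16.3% in 5xFAD, and 0% to 0.758% and 0.47% to 3.77% for the GF minus SPF and ABX minus GF interactions. The cause was not tested in any of these.

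Leaving out 1 mouse gave counts of 0 to 1 in SPF, 3 to 6 in GF, 0 to 2 in ABX and 4 to 6 for the averaged genotype comparison. It gave 0 to 1 for GF against SPF in WT, 1 to 5 in 5xFAD, 0 to 0 for ABX against SPF in WT, 0 to 1 in 5xFAD, 0 to 1 for ABX against GF in WT and 2 to 6 in 5xFAD. The interactions gave 0 to 0 (GF minus SPF and ABX minus SPF) and 0 to 3 (ABX minus GF). All genes called ran from 2.73% to 5.3% in SPF, 11.7% to 18.1% in GF and 9.9% to 17.7% in ABX mice for genotype in these fits, and from 3.41% to 15.1% for GF against SPF and 6.39% to 16.3% for ABX against GF in 5xFAD. Library size alone moved the median of all genes for 5xFAD against WT from -0.025 to -0.15 in GF mice. It changed the genes called higher and lower from 571 and 128 to 533 and 215 in SPF, from 1445 and 762 to 1160 and 1311 in ABX and from 2183 and 1655 to 1756 and 2972 in the averaged comparison, from 1066 and 896 to 626 and 1295 for GF against SPF and from 692 and 929 to 1173 and 554 for ABX against GF in 5xFAD, and from 140 and 129 to 209 and 69 for the ABX minus GF interaction. Nqo1 was too low in reads to be tested. Intervals for Nqo1 cover counting error only.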
